A study of Mus musculus with 24 samples.

Results

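The genes described here encode the kainate-type glutamate receptors and their auxiliary proteins, and were measured as mRNA in the hippocampal CA1 subfield of mice early after pilocarpine-induced status epilepticus (SE). They are the 5 subunit genes Grik1 to Grik5 and the 2 auxiliary genes Neto1 and Neto2, chosen by their gene symbols, 7 of the 18647 genes in the count table. All 7 passed the filter on low counts, which left 18153 genes for testing. Counts of these genes per library ran from 67 (Grik4 in Ctr 72 h replicate 3) to 10071 (Grik5 in SE 12 h replicate 2).

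In the mouse build GRCm39, Grik1 lies on chromosome 16 (87692788 to 88087153), Grik2 on chromosome 10 (48970929 to 49664880), Grik3 on chromosome 4 (125384202 to 125607966), Grik4 on chromosome 9 (42429431 to 42856154), Grik5 on chromosome 7 (24709269 to 24772708) and Neto2 on chromosome 8 (86363217 to 86429213). On the opposite strand, exons of Neto1 share 6.7% of their bases with Gm54041 and 1.9% with Gm50384, exons of Neto2 share 6.2% with Gm39214 and 1.3% with Mir8109, and exons of Grik5 share 1.6% with Zfp574. Counting ignored strand, so reads there cannot be told apart.

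Kainate receptors are ion channels made of 4 subunits each, opened by glutamate. GluK1, GluK2 and GluK3, encoded by Grik1, Grik2 and Grik3, can form channels on their own and bind kainate with lower affinity, whereas GluK4 and GluK5, encoded by Grik4 and Grik5, bind it with high affinity and need one of the former as a partner. Neto1 and Neto2 are membrane proteins with CUB domains that associate with these receptors and slow their kinetics. In the hippocampus the receptors act at presynaptic terminals and in postsynaptic membranes, and the mossy fibre synapse onto CA3 pyramidal cells is known for its strong kainate receptor component.

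Adult C57Bl/6N mice, at least 60 days old and at least 20 g, were injected with 1 mg/kg scopolamine methyl nitrate and 20 min later with 335 mg/kg pilocarpine. All received 4 mg/kg diazepam, in SE animals 40 min after SE began. SE animals were sampled 6, 12 or 24 h, or else 36 or 72 h, after SE, and controls (Ctr), which got saline in place of pilocarpine and every other injection, at 12, 36 and 72 h, with 3 libraries in each of the 8 groups and 24 libraries in all. Pilocarpine-injected animals entered only if they developed SE, and the labels do not say whether a library holds 1 animal, so p-values measure the spread between these libraries.

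The libraries held 2663936 to 30133731 counts (median 13521590). All 6 markers of CA1 pyramidal cells were detected in every library, and their summed level was 414 to 1598 CPM (counts scaled to a common library total with edgeR's TMM factors). Several libraries stood apart in ways that touch the genes below. In 6 libraries (Ctr 72 h replicate 2, SE 6 h replicate 3, SE 12 h replicate 1, SE 36 h replicate 3, and SE 72 h replicates 1 and 2) the 12 genes of a list of sensory ganglion neurons summed to 299 to 1771 CPM, against 6.06 to 74.3 CPM in the other 18. That list was drawn up with earlier results of these data known. Ctr 12 h replicate 3 had the highest levels of the CA3 markers Bok (60.1 CPM), Iyd (4.56 CPM), Cdh24 (43.7 CPM) and Cpne4 (188 CPM). It did not have the highest Nptx1 (976 CPM) or Coch (1.81 CPM). SE 72 h replicate 1 had the highest levels of the dentate markers Prox1 (145 CPM), C1ql2 (80.5 CPM) and Stxbp6 (82.4 CPM). It did not have the highest Dsp (21.9 CPM), Pdzd2 (106 CPM) or Calb1 (93.5 CPM), and it had the lowest CA1 sum (414 CPM). Bulk RNA cannot tell fewer cells of a type from less RNA per cell, and each level below is an average over all cells of the dissected tissue.

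Levels of different genes were compared per length, as RPKM, in which counts are divided by library total and by exon length. Grik5 stood first, with a median of 32.1 RPKM over the 9 control libraries (23.8 to 37.3), and Neto1 second, with 12.7 RPKM (11.3 to 25.9). These ranges overlapped only through Neto1 in Ctr 12 h replicate 3 (25.9 RPKM). The other 5 genes lay close together. Grik3 had a control median of 5.93 RPKM (4.62 to 14.8) and Neto2 one of 5.02 RPKM (2.42 to 6.48). Grik2 followed with 4.57 RPKM (3.2 to 5.29), Grik4 with 3.92 RPKM (2.61 to 12.8) and Grik1 with 3.23 RPKM (2.38 to 13.5). Neighbours in this order, from Grik3 down to Grik1, did not differ beyond their spread, and the ranges of Neto1 and Grik3 also overlapped. The order of the lower 5 depended on the length used, since with canonical transcripts the control medians were 8.14 RPKM for Grik2, 7.81 for Neto2, 6.48 for Grik3, 6.08 for Grik1 and 6.02 for Grik4. Of the summed Grik RPKM, Grik5 held 45.7 to 69% in the control libraries and 44.7 to 75.8% in the 15 SE libraries, and with the length of the canonical transcript in place of all exonic bases these shares were 50.2 to 73.9% and 49.7 to 80.9%. Summed over the 5 subunit genes, the level was 48.1 to 61.6 RPKM in controls and 34.8 to 47.5 RPKM after SE, so that the libraries of the 2 conditions did not overlap. With scaling to library size alone the ranges were 47.5 to 59.5 and 34.6 to 49.3 RPKM and overlapped through SE 6 h replicate 1 (49.3 RPKM). The mean sum was 46.9 ± 0.518 RPKM (SD, n = 3) in SE 6 h, 41.2 ± 6.27 in SE 12 h, 40.2 ± 2.91 in SE 24 h, 38.2 ± 0.944 in SE 36 h and 39.7 ± 2.91 in SE 72 h. It was 56.3 ± 6.35 RPKM in Ctr 12 h, 51.4 ± 2.49 in Ctr 36 h and 51 ± 2.56 in Ctr 72 h (SD, n = 3 each). Much of the difference in the sum was Grik5, with a mean of 31.3 RPKM over the controls and 22.8 RPKM over the SE libraries. The means over controls and SE were 4.37 and 2.77 RPKM for Grik2 and 7.91 and 7.3 RPKM for Grik3. They were 4.92 and 4.4 RPKM for Grik4 and 4.41 and 4 RPKM for Grik1. The sum was read as a description and was not tested.

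**Figure D1:**
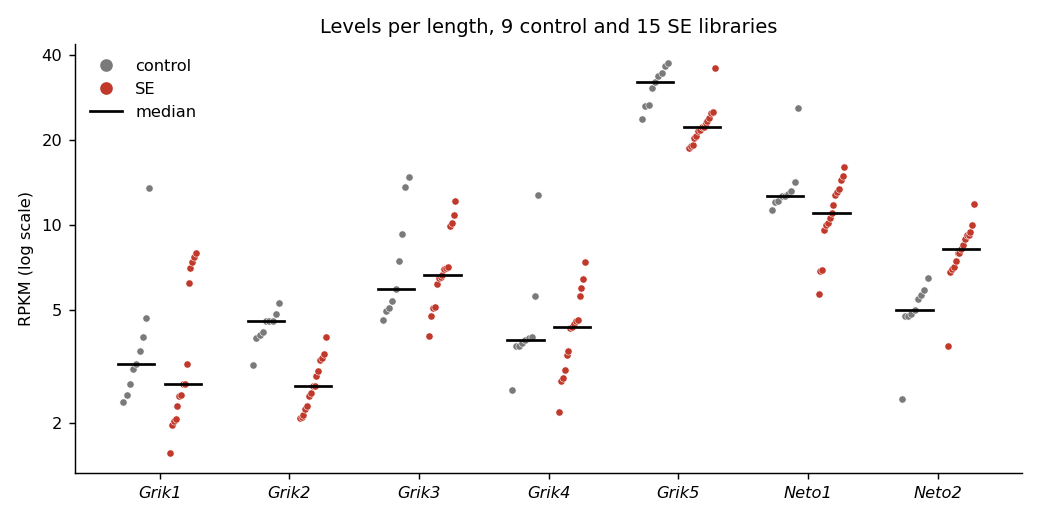
Level per length (RPKM, log axis) of the 7 genes in the 9 control libraries (grey) and the 15 SE libraries (red), each point a library, sorted by value, with the median as a black line. Grik5 has the highest control median (32.1 RPKM), and the control medians of Grik1, Grik2, Grik3, Grik4 and Neto2 lie between 3.23 and 5.93 RPKM.

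Comparisons of SE with control asked which of these genes changed after SE and when. SE at 12, 36 and 72 h was set against the control group of the same time, and SE at 6 and 24 h, which had no control of their own, against the mean of the 3 control groups. The 5 comparisons therefore share control libraries. All 24 libraries entered one edgeR quasi-likelihood model, which held the 8 groups and 1 RUVr factor, a covariate estimated from residuals to absorb unwanted variation. The weight of this factor was 0.801, -0.394 and -0.349 in Ctr 72 h replicates 2, 1 and 3, and -0.096 to 0.129 in the other libraries. It therefore lay mostly in the Ctr 72 h group. A gene passed where its Benjamini-Hochberg adjusted p, taken over all 18153 genes, did not exceed 0.05 and its log2 fold change (log2FC) reached 0.66 in either direction. Between SE time points the limit was 1.

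At 6 h, Neto2 passed and was higher, and none of the 7 genes passed as lower. At 12 h, Grik2 and Neto1 passed and were lower. At 24 h Neto2 passed as higher, at 36 h Grik5 passed as lower, and at 72 h none passed. Among all tested genes the share that passed was 21.8% in the 6 h comparison (15.7% higher, 6.14% lower), 25% in that of 12 h (13.8% higher, 11.3% lower) and 24% in that of 24 h (14.9% higher, 9.17% lower). It was 21.4% in the 36 h comparison (12.6% higher, 8.84% lower) and 19.1% in that of 72 h (15.1% higher, 4.08% lower). With 1 or 2 of 7 genes passing at 6 to 36 h and 0 of 7 at 72 h, the family's share was near this background. From the earliest to the latest comparison the median log2FC of the 7 genes was -0.31, -0.61, -0.17, 0.18 and -0.30, against 0.057, 0.007, 0.038, 0.003 and 0.095 over all genes tested.

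**Figure D2:**
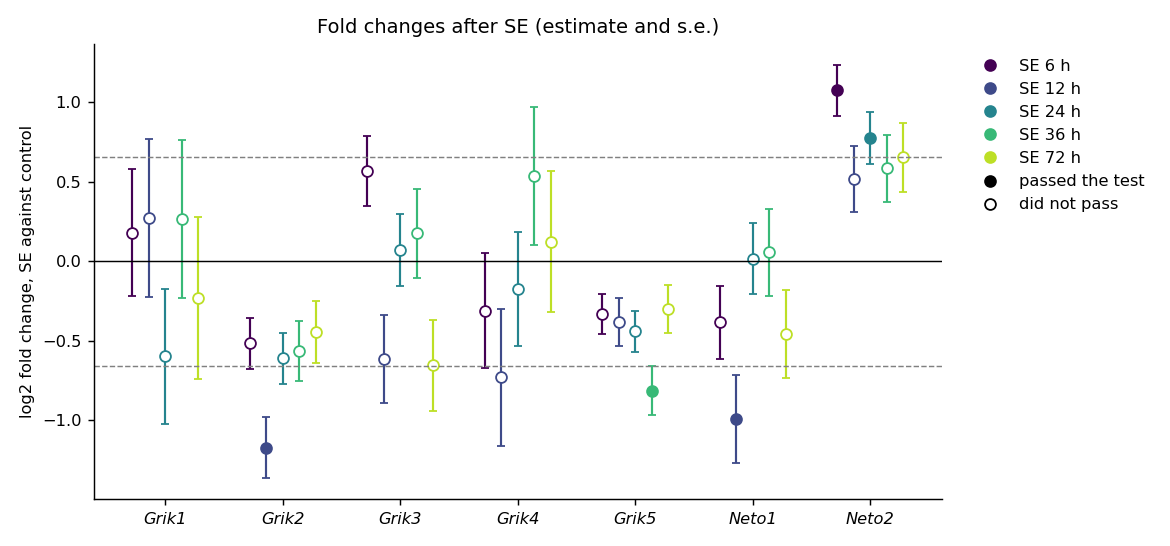
Log2 fold change of each gene at 5 times after SE against its control (points, with the standard error as bars), coloured by time, filled where the test was passed and open where it was not. The dashed lines mark a log2FC of 0.66 in either direction. Filled points are Neto2 at 6 and 24 h, Grik2 and Neto1 at 12 h, and Grik5 at 36 h.

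Among the low-affinity subunits, Grik2, the gene of GluK2, passed the test at 12 h. Its level was 76.9, 81.5 and 89 CPM in the Ctr 12 h libraries and 38.7, 35.8 and 35.2 CPM in the SE 12 h libraries. All 3 SE libraries lay below all 3 controls, by more than the spread within either group. The log2FC was -1.17 (s.e. 0.19, adjusted p = 8.67e-05, edgeR), a fold of 0.444, and it passed in each of 13 alternatives and in each of 7 omissions of a library. The 12 genes of a list of neuron markers summed to 12699 to 17519 CPM at Ctr 12 h and 9505 to 10870 CPM at SE 12 h. Of the 12, 6 were lower in all SE libraries than in all controls, 1 (Nefm) was higher and 5 overlapped, and much of the difference in the sum was Camk2a (3667 to 6733 CPM against 2424 to 2535 CPM). All 6 CA1 pyramidal markers overlapped, with a sum of 779 to 1254 CPM at Ctr 12 h and 728 to 941 CPM at SE 12 h. The 10 interneuron markers summed to 774 to 1013 and 1094 to 1572 CPM, with 3 higher, 2 lower and 5 overlapping. The 9 astrocyte markers summed to 5148 to 5888 and 6368 to 9190 CPM, with 2 higher, 2 lower and 5 overlapping. The part of these markers in the result was not tested.

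Grik2 was below the control level at the other times as well, without passing. The level was 45.5, 49.1 and 58.9 CPM in SE 6 h, 45.6, 56.3 and 41.9 CPM in SE 24 h, 51.3, 57.1 and 37.7 CPM in SE 36 h, and 67.8, 43 and 34.9 CPM in SE 72 h. Controls were at 77.3, 67.3 and 70.6 CPM at 36 h and at 77.1, 53.9 and 69 CPM at 72 h. The log2FC was -0.52 at 6 h (s.e. 0.16, adjusted p = 0.0147), -0.61 at 24 h (s.e. 0.16, adjusted p = 0.00484) and -0.56 at 36 h (s.e. 0.19, adjusted p = 0.0284), in each case an adjusted p under the threshold with a fold under the limit. At 72 h it was -0.45 (s.e. 0.19, adjusted p = 0.0926). At 36 h all SE libraries lay below the controls, while at 6 and 24 h the highest SE library lay above Ctr 72 h replicate 2. The groups also overlapped at 72 h, where SE 72 h replicate 1 (67.8 CPM) lay within the controls and Ctr 72 h replicate 2 was the lowest control (53.9 CPM), both of them libraries with ganglion genes. Without SE 72 h replicate 1, Grik2 passed at 72 h (log2FC -0.77, adjusted p = 0.00216). Without all 6 libraries with ganglion genes it passed at 6 h (-0.68) and 24 h (-0.66), an alternative chosen after seeing the data. At 72 h this left SE 72 h replicate 3 as the sole SE library, and the log2FC was -1.07. With Ctr 12 h replicate 3 left out as well, Grik2 was again at -1.07 at 72 h. It no longer passed at 6 h (-0.658, adjusted p = 0.00033) or 24 h (-0.641, adjusted p = 5.29e-05), where the fold was under the limit. Grik2 also passed at 24 h without SE 24 h replicate 2 (-0.75) or Ctr 72 h replicate 2 (-0.66) and at 36 h without SE 36 h replicate 2 (-0.69).

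The SE effect on Grik2 was less negative at 36 h than at 12 h by 0.61 on the log2 scale (s.e. 0.27, adjusted p = 0.209) and at 72 h than at 12 h by 0.73 (s.e. 0.27, adjusted p = 0.0599), and neither difference passed in edgeR. Of all genes tested, 3.36% passed for 36 h minus 12 h, 18.4% for 72 h minus 12 h and 4.78% for 72 h minus 36 h, and none of the 7 genes did in any of these 3. At an unadjusted p under 0.05 there were 2, 1 and 1 of them, in that order. The share of all genes at that looser limit is not given, so these counts have no background beside them. Grik2 passed for 72 h minus 12 h without SE 72 h replicate 3 (0.92) or Ctr 72 h replicate 1 (0.85), and for 36 h minus 12 h without the ganglion gene libraries (0.82).

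Grik1, the gene of GluK1, was highest in the 6 libraries with the highest sums of sensory ganglion genes. It was at 41.9 to 90.5 CPM in the 6 libraries with over 100 CPM of ganglion genes and at 10.5 to 31.5 CPM in the other 18, with no overlap. The highest library was Ctr 72 h replicate 2 (90.5 CPM), which also had the highest ganglion sum (1771 CPM). Levels in the remaining 5 were 47.2 CPM in SE 6 h replicate 3, 49.9 CPM in SE 12 h replicate 1, 53.5 CPM in SE 36 h replicate 3, and 51.7 and 41.9 CPM in SE 72 h replicates 1 and 2. Within the other 18 libraries, the 10 SE libraries lay at 10.5 to 21.7 CPM and the 8 controls at 16 to 31.5 CPM, and these ranges overlapped. Over the same 18 libraries Neto2 lay at 63.4 to 90.4 CPM after SE and 43.1 to 58.5 CPM in controls, and Grik2 at 34.9 to 57.1 and 67.3 to 89 CPM, with no overlap for either gene. Grik3, Grik4, Grik5 and Neto1 overlapped there, and over all 24 libraries Neto2 and Grik2 overlapped as well. The limit of 100 CPM was chosen after seeing the data. The share of all genes without overlap is not given, so these ranges describe the libraries and single out neither Neto2 nor Grik2. The part of ganglion RNA in the level of Grik1 was not tested.

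With all libraries Grik1 did not pass at any time. The log2FC was 0.18 (s.e. 0.40, adjusted p = 0.753) at 6 h, 0.27 (s.e. 0.50, adjusted p = 0.699) at 12 h, -0.60 (s.e. 0.43, adjusted p = 0.279) at 24 h, 0.27 (s.e. 0.50, adjusted p = 0.726) at 36 h and -0.23 (s.e. 0.51, adjusted p = 0.781) at 72 h. Without the 6 libraries the log2FC at 36 h turned to -0.70 (s.e. 0.20, adjusted p = 0.0134) and passed. Without these and Ctr 12 h replicate 3 it passed as lower at 12 h (-0.67, adjusted p = 0.015) and 36 h (-0.70, adjusted p = 0.00887). At 72 h it was -0.79, with SE 72 h replicate 3 as the sole SE library left. The direction for Grik1 at 12 and 36 h therefore depended on which libraries entered the fit.

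**Figure D3:**
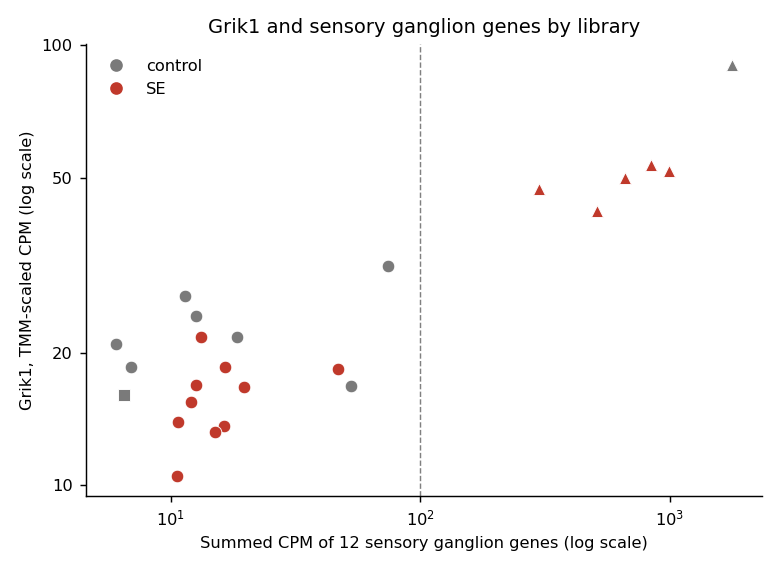
Grik1 (TMM-scaled CPM, log axis) against the summed CPM of 12 sensory ganglion genes (log axis) in each of the 24 libraries, controls in grey and SE in red. Triangles are the 6 libraries over the dashed line at 100 CPM, where Grik1 was at 41.9 to 90.5 CPM, and the square is Ctr 12 h replicate 3.

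Grik3, the gene of GluK3, varied among controls. Its level was 75.8, 137 and 46.7 CPM at Ctr 12 h, 51.6, 54.5 and 50.5 CPM at Ctr 36 h, and 94.4, 60 and 150 CPM at Ctr 72 h. It was at 111, 123 and 104 CPM at SE 6 h, which lay inside the range of the controls, and at 66.6, 51.5 and 48.2 CPM at SE 12 h. Later levels were 71.4, 101 and 65.9 CPM in SE 24 h, 71, 67.6 and 41.1 CPM in SE 36 h, and 51.8, 62.5 and 72.2 CPM in SE 72 h. Against control no time passed: the log2FC was 0.57 at 6 h (s.e. 0.22, adjusted p = 0.0483), -0.61 at 12 h (s.e. 0.28, adjusted p = 0.0912) and -0.65 at 72 h (s.e. 0.28, adjusted p = 0.0952), with 0.07 and 0.18 at the times between. Single control libraries decided these values. Without Ctr 12 h replicate 3 Grik3 passed as lower at 12 h (-0.93, adjusted p = 0.00865), and without Ctr 12 h replicate 2 its log2FC at 12 h was -0.08. It passed as higher at 6 h without Ctr 12 h replicate 2 (0.76) or Ctr 72 h replicate 3 (0.67), and as lower at 72 h without Ctr 72 h replicate 2 (-0.95).

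Between consecutive SE time points, Grik3 was the gene that passed, lower at 12 h than at 6 h (log2FC -1.003, s.e. 0.28, adjusted p = 0.0477), with all 3 libraries at 12 h below all 3 at 6 h. Of all genes tested, 1.27% passed between 6 and 12 h, 3.07% between 12 and 24 h, 0.435% between 24 and 36 h and 4.08% between 36 and 72 h, and the other 6 genes passed in none of these. The value sat on the limit in both fold and adjusted p. It did not pass on omission of any library of SE 6 h or SE 12 h (log2FC -0.91 to -1.17, adjusted p = 0.0505 to 0.133), nor without the RUVr factor (adjusted p = 0.0985).

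Of the high-affinity subunits, Grik5, the gene of GluK5, passed as lower at 36 h. At this time the levels were 347, 320 and 315 CPM in controls and 192, 179 and 188 CPM after SE. The groups were far apart relative to their spread. The log2FC was -0.81 (s.e. 0.15, adjusted p = 0.00035), a fold of 0.569, and it passed in each of 7 omissions of a library. Ctr 36 h was the control group with the highest Grik5, since Ctr 12 h held 285, 298 and 339 CPM and Ctr 72 h 244, 221 and 249 CPM. Against the mean of the 3 control groups the value at 36 h was -0.63 (adjusted p = 0.000552), under the fold limit. Within the one range of sample label numbers that held both conditions at 36 h (109 to 122, with 2 SE and 3 control libraries) the log2 ratio of the mean CPM was -0.82.

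In 14 of the 15 SE libraries Grik5 lay between 175 and 234 CPM. It was at 232, 234 and 222 CPM in SE 6 h, 177, 334 and 201 CPM in SE 12 h, 218, 213 and 206 CPM in SE 24 h, and 175, 206 and 202 CPM in SE 72 h. The exception was SE 12 h replicate 2 (334 CPM), which lay within the controls. The log2FC was -0.33 at 6 h (s.e. 0.13, adjusted p = 0.0412), -0.38 at 12 h (s.e. 0.15, adjusted p = 0.054), -0.44 at 24 h (s.e. 0.13, adjusted p = 0.00877) and -0.30 at 72 h (s.e. 0.15, adjusted p = 0.153). None reached the fold limit, although the SE libraries at 24 and 72 h lay below every control library they were compared with. Without SE 12 h replicate 2, Grik5 passed at 12 h (-0.71, adjusted p = 3.71e-05). Neuron markers summed to 9761 to 11195 CPM in SE 36 h against 14585 to 15677 CPM in Ctr 36 h, with 7 of 12 lower in all SE libraries, Nefl and Nefm higher, and 3 overlapping. Much of this difference too was Camk2a (1545 to 2008 CPM against 5146 to 6354 CPM), and the part of these markers was not tested.

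Grik4, the gene of GluK4, did not pass at any time. Its level was 36.9, 38.8 and 123 CPM at Ctr 12 h, 38.5, 36 and 35.8 CPM at Ctr 36 h and 37.6, 54.2 and 25.1 CPM at Ctr 72 h. After SE the 15 libraries lay at 21.1 to 71.3 CPM, with a median of 42.1 CPM against 37.6 CPM in controls. The 3 SE 36 h libraries (43.2, 71.3 and 44.5 CPM) were all above the 3 Ctr 36 h libraries, with a log2FC of 0.54 (s.e. 0.44, adjusted p = 0.379). The other comparisons gave, from early to late, -0.31, -0.73, -0.17 and 0.12, with adjusted p from 0.197 to 0.873. The value at 12 h rested on Ctr 12 h replicate 3, the library with the highest Bok, without which it was 0.07.

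**Figure D4:**
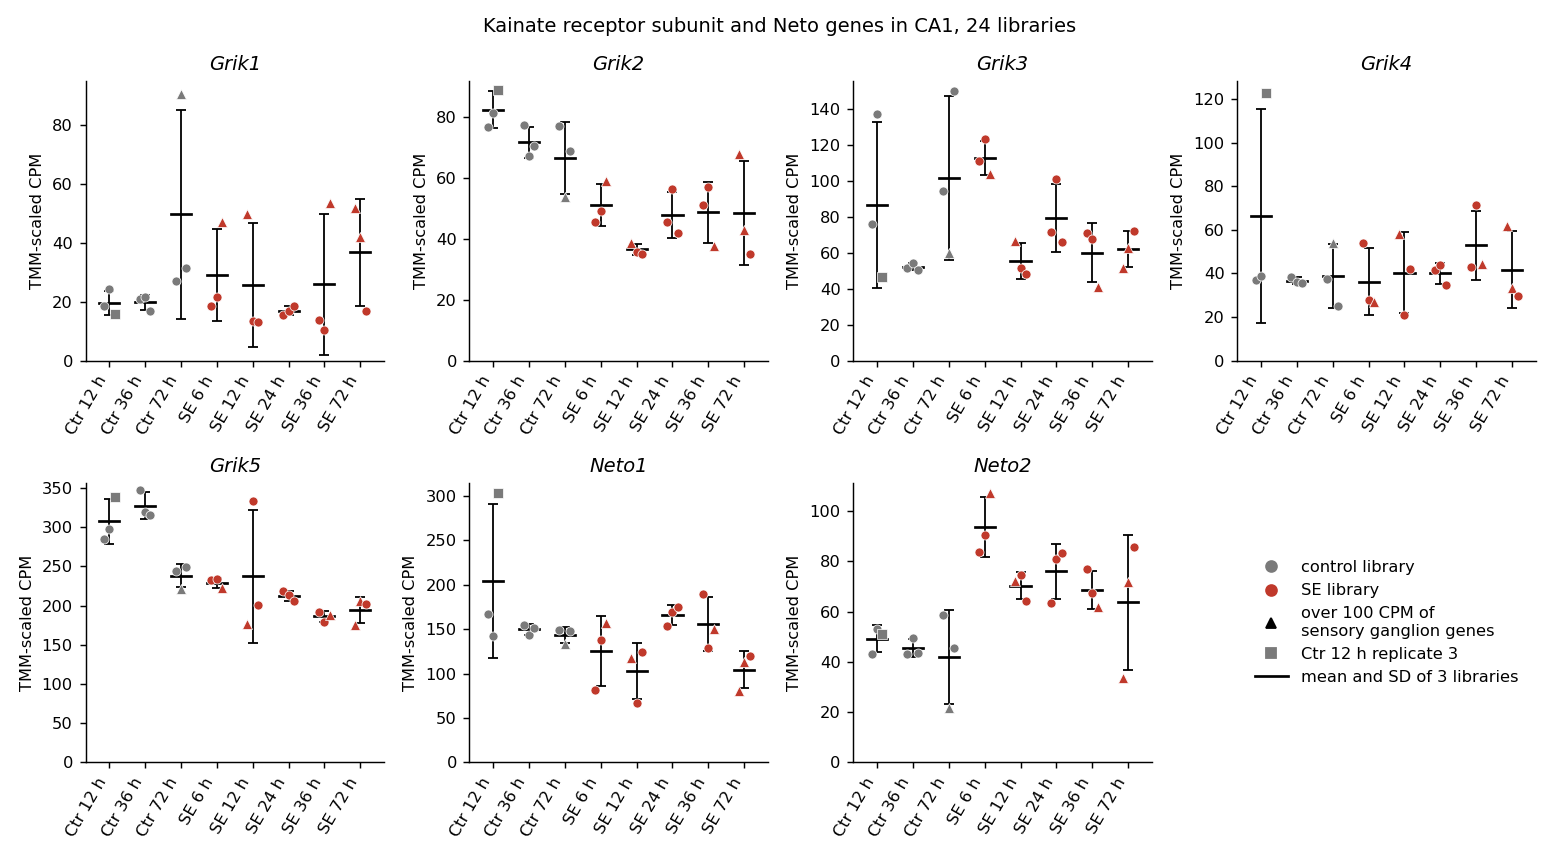
TMM-scaled CPM of the 7 genes in all 24 libraries by group, controls in grey and SE in red, with the mean and SD of 3 libraries in black. Triangles mark the 6 libraries with over 100 CPM of sensory ganglion genes, and the square marks Ctr 12 h replicate 3. Grik2 at SE 12 h (35.2 to 38.7 CPM) lies below its controls (76.9 to 89 CPM), and Neto2 at SE 6 h (83.7 to 107 CPM) above all controls (21.8 to 58.5 CPM).

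Of the auxiliary genes, Neto2 passed as higher at 6 and 24 h. At 6 h it was at 83.7, 90.4 and 107 CPM, against 43.1, 53.2 and 51.2 CPM at Ctr 12 h, 43.2, 49.6 and 43.7 CPM at Ctr 36 h, and 58.5, 21.8 and 45.4 CPM at Ctr 72 h. Every SE 6 h library lay above every control. The log2FC was 1.08 (s.e. 0.16, adjusted p = 3.53e-05), a fold of 2.11, and it passed in each of 12 alternatives and each of 12 omissions of a library (0.93 to 1.19). Without the 6 libraries with ganglion genes it was 0.82 (adjusted p = 0.000117). Several marker lists also differed in their sums at 6 h. The 8 oligodendrocyte markers summed to 5688 to 6138 CPM at SE 6 h against 2638 to 4650 CPM in controls, with 6 higher in all SE libraries and 2 overlapping. The 10 interneuron markers summed to 1128 to 1460 CPM against 678 to 1047 CPM, with Gad1 and Gad2 higher, Erbb4 lower and 7 overlapping. The 9 astrocyte markers summed to 6180 to 7743 CPM against 4840 to 5888 CPM, with 2 higher and 7 overlapping, and the 10 microglia markers to 239 to 243 CPM against 327 to 433 CPM, with 5 lower and 5 overlapping. Their part in the level of Neto2 was not tested.

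At 24 h Neto2 was at 63.4, 81 and 83.5 CPM, above all 9 controls, with a log2FC of 0.78 (s.e. 0.17, adjusted p = 0.000827). This call rested on Ctr 72 h replicate 2, the lowest control (21.8 CPM) and a library with ganglion genes. Without it the log2FC was 0.63 (adjusted p = 0.00916), under the fold limit, and without all 6 libraries with ganglion genes it was 0.63 as well (adjusted p = 0.00021). All 3 SE 24 h libraries had label numbers in the range 92 to 104, which held no control. With the range of label numbers as a factor the log2FC was 0.67 (adjusted p = 0.032). At 12 h the SE libraries (72.1, 74.6 and 64.2 CPM) and at 36 h (76.8, 67.4 and 61.7 CPM) lay above all libraries of their control groups, and neither time passed, with log2FC of 0.52 (s.e. 0.21, adjusted p = 0.0561) and 0.59 (s.e. 0.21, adjusted p = 0.0381). Without SE 36 h replicate 3 it passed at 36 h (0.67, adjusted p = 0.0427). At 72 h the levels were 33.7, 71.9 and 85.5 CPM, overlapping the controls, and the log2FC of 0.655 (s.e. 0.22, adjusted p = 0.029) missed the limit of 0.66. The low library was SE 72 h replicate 1, without which Neto2 passed (0.98, adjusted p = 0.000158). It also passed at 72 h without Ctr 72 h replicate 1 (1.006) or replicate 3 (0.74), and did not pass without replicate 2 (0.26, adjusted p = 0.494). The SE effect on Neto2 differed between 12, 36 and 72 h by 0.07 to 0.14 on the log2 scale (s.e. 0.30), which was within its error.

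Neto1 passed at 12 h as lower. Its level was 167, 142 and 303 CPM at Ctr 12 h and 118, 67 and 124 CPM at SE 12 h, with no overlap. The log2FC was -0.99 (s.e. 0.28, adjusted p = 0.00817), a fold of 0.503. The highest Neto1 of all 24 libraries was in Ctr 12 h replicate 3 (303 CPM). Without it the log2FC was -0.59 (adjusted p = 0.0845) and did not pass, whereas without it and the 6 libraries with ganglion genes it was -0.74 (adjusted p = 0.0258) and passed. Without those 6 alone it was -1.14 (adjusted p = 0.0122), and in a fit of the Ctr 12 h and SE 12 h libraries alone, with no RUVr factor, the adjusted p was 0.0641. The CA3 marker list summed to 1274 CPM in Ctr 12 h replicate 3 and to 531 and 458 CPM in the other Ctr 12 h libraries. Of these sums, 976, 459 and 383 CPM were Nptx1. In SE 12 h replicate 2 the list summed to 1405 CPM, of which 1314 CPM were Nptx1, while Neto1 (67 CPM) and Grik4 (21.1 CPM) were at their lowest there. The part of these markers in the level of Neto1 was not tested. Within the label range of 162 to 169, which held 1 library of each condition at 12 h (SE 12 h replicate 1 and Ctr 12 h replicate 3), the log2 ratio of CPM was -1.37 for Neto1 and -1.2 for Grik2.

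At the other times Neto1 did not pass. It was at 81.5, 138 and 157 CPM in SE 6 h, 153, 169 and 175 CPM in SE 24 h, 189, 129 and 150 CPM in SE 36 h and 80.5, 113 and 120 CPM in SE 72 h, and controls at 36 and 72 h lay at 133 to 155 CPM. The 3 SE 72 h libraries lay below the 3 controls (149, 133 and 148 CPM), with a log2FC of -0.46 (s.e. 0.28, adjusted p = 0.234). The comparisons of 6, 24 and 36 h gave -0.38, 0.02 and 0.06, with adjusted p from 0.194 to 0.963.

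The balance between the auxiliary genes differed between the conditions. Per length, Neto2 made up 17.6 to 33.7% of the summed Neto RPKM in the 9 controls and 34.6 to 59.1% in the 15 SE libraries, with no overlap. The mean share was 50.1 ± 6.14% (SD, n = 3) in SE 6 h, 47.9 ± 9.95% in SE 12 h, 37.2 ± 1.99% in SE 24 h, 36.6 ± 3.32% in SE 36 h and 42.8 ± 6.74% in SE 72 h. It was 25.3 ± 7.4% in Ctr 12 h, 28.3 ± 2.33% in Ctr 36 h and 26.6 ± 8.24% in Ctr 72 h. The highest control (33.7%) and the lowest SE library (34.6%) were close, and they came from different times. The ratio of Neto2 to Grik2 RPKM was 0.755 to 1.41 in controls and 2.2 to 4.56 in 14 of 15 SE libraries. The exception was SE 72 h replicate 1, at 0.927. Ratios within a library do not depend on library scaling, and with canonical transcript lengths the Neto2 shares were 19.6 to 36.9% and 37.8 to 62.4%. These ratios were computed after the levels were seen and are given without a test.

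**Figure D5:**
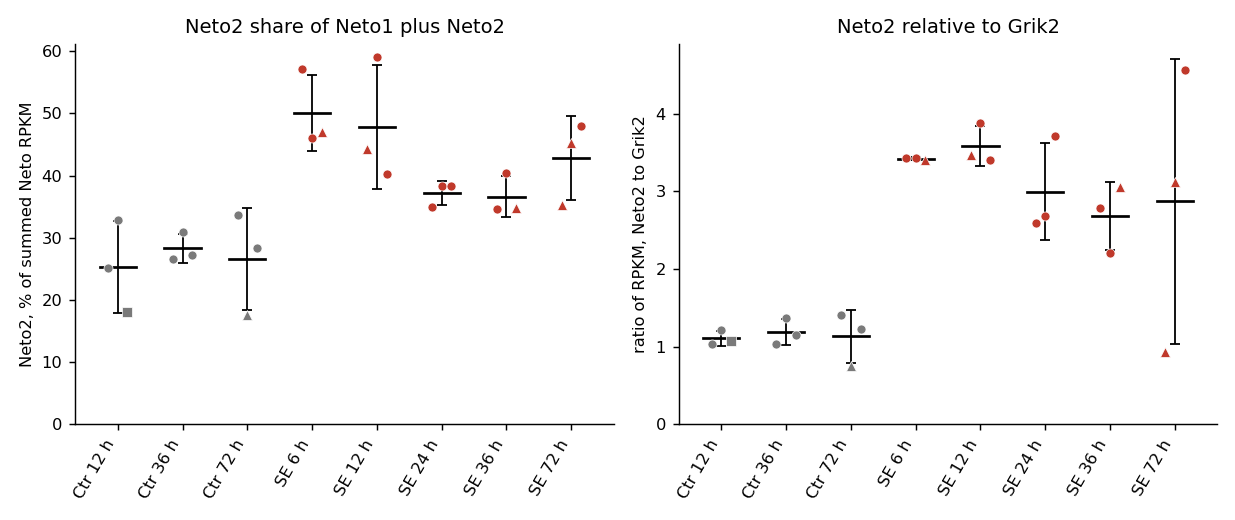
Left, Neto2 as a percentage of the summed RPKM of Neto1 and Neto2, and right, the ratio of Neto2 to Grik2 RPKM, by group, controls in grey and SE in red, each point a library (triangles, libraries with over 100 CPM of ganglion genes, square, Ctr 12 h replicate 3), with mean and SD in black. The Neto2 share was 17.6 to 33.7% in controls and 34.6 to 59.1% after SE, and 1 SE library, SE 72 h replicate 1, lay within the control range of the ratio at 0.927.

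Sequences upstream of the start are shown for Grik2 and Grik5, which passed as lower, and Neto2, which passed as higher, so that their base composition can be compared. They are the 250 bases before the annotated start in the RefSeq annotation of mouse build GRCm38.p6, written 5′ to 3′ on the strand of the gene, with CpG dinucleotides in capitals. Promoter windows were found for 5 of the 7 genes (Grik2, Grik3, Grik4, Grik5 and Neto2, the last with 2 starts), and the build differs from that of the counts.
Grik2, chr10:49788755-49789004, minus strand: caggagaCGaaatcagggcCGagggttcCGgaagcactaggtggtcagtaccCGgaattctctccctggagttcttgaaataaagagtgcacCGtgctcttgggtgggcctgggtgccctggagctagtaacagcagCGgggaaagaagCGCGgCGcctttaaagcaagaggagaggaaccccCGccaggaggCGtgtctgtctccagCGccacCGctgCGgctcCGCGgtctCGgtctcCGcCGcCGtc
Grik5, chr7:25072370-25072619, minus strand: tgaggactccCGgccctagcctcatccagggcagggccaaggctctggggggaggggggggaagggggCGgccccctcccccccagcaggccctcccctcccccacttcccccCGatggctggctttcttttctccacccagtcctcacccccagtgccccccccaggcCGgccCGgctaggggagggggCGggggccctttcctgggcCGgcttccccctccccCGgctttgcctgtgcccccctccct
Neto2, chr8:85700925-85701174, minus strand: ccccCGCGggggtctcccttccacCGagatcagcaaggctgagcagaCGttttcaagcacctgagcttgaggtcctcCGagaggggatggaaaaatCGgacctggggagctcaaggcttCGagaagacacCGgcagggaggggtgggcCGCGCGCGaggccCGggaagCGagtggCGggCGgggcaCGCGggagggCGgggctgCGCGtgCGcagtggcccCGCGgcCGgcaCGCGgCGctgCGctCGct
The stretch of Neto2 holds 30 CpG, that of Grik2 20 and that of Grik5 8, with G and C making up 72%, 62.8% and 75.2% of the bases. The median over all windows is 6 CpG, and 57% of windows hold fewer CpG than that of Grik5. The other start of Neto2 (chr8:85691010-85691259) has 0 CpG. Over 300 bases from 250 before to 50 after each start, neither strand of any of the 6 windows held the cyclic AMP response element TGACGTCA, the AP-1 site TGANTCA, or the Egr sites GCGTGGGCG and GCGGGGGCG. Of all 32851 such windows, 1.79% held the first, 7.81% the second, and 0.612% and 2.91% the Egr forms. The absence of these letters from a window says nothing of the factors themselves.

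The control groups were compared to see how far the 7 genes differed without SE. None passed between Ctr 36 h and Ctr 12 h, Ctr 72 h and Ctr 36 h, or Ctr 72 h and Ctr 12 h, where 0%, 1.96% and 0.986% of all genes passed. At an unadjusted p under 0.05 there were 1, 2 and 1 of the 7 genes, and the share of all genes at that limit is not given. The largest differences were Grik1 at 72 h against 36 h (1.06, s.e. 0.51) and against 12 h (1.08, s.e. 0.52), and these include the library with the most ganglion RNA. Grik3 was higher at 72 h than at 36 h by 0.90 (s.e. 0.29) in edgeR, without passing, and passed in DESeq2 (0.93, adjusted p = 0.0269). It also passed in edgeR without Ctr 12 h replicate 2 (0.91, adjusted p = 0.0303) or replicate 3 (0.89, adjusted p = 0.0413). Grik5 was at -0.46 (s.e. 0.15) at 72 h against 36 h.

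For each of the 4 genes that passed, the genes with the most similar log2FC over the 5 comparisons were sought among the 13751 genes whose mean log2 CPM was 1 or more. Likeness was the root mean square difference, and the 5 values are not independent. Closest to Grik2 was Clasp2 (difference 0.0626, with -0.57, -1.11, -0.63, -0.51 and -0.35 from 6 to 72 h), followed by A230057D06Rik (0.0641). Closest to Grik5 were Snph (0.048) and Nsmf (0.0593). Snph had log2FC of -0.31, -0.45, -0.45, -0.74 and -0.3. Neto1 was closest to Pcdha9 (0.102) and Vwc2 (0.134), and Neto2 to Pde3a (0.131) and Gm6180 (0.134). The distances for Neto1 and Neto2 were larger than those for Grik2 and Grik5.

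Among 22 listed partners and modifiers of kainate receptors, 21 were tested. From the earliest to the latest comparison, 3, 1, 1, 0 and 1 passed as higher and 1, 1, 0, 0 and 2 as lower. These counts, 4, 2, 1, 0 and 3 of 21 in either direction, stand beside shares of 21.8%, 25%, 24%, 21.4% and 19.1% over all genes tested, and none exceeds that background. In the 36 h comparison 7 of the 21 had an unadjusted p under 0.05 in edgeR, a limit for which no share of all genes is given. The median log2FC of the 21 was 0.14, -0.14, -0.08, -0.04 and -0.20, from the earliest comparison to the latest. Dlg1, encoding the scaffold protein SAP97, was higher at 6 h (1.27, s.e. 0.15), 12 h (0.785, s.e. 0.19) and 24 h (0.90, s.e. 0.15). Klhl24, whose product was described as a GluK2-binding protein, was lower at 6 h (-0.80, s.e. 0.16) and 12 h (-0.96, s.e. 0.18). At 6 h Adar, an RNA editing enzyme (0.67, s.e. 0.08), and C1ql3, a secreted synaptic protein (1.37, s.e. 0.39), were also higher. At 72 h Dpysl2 (-0.71, s.e. 0.13) and the SNARE protein gene Snap25 (-0.73, s.e. 0.15) were lower and the SUMO protease gene Senp1 (0.73, s.e. 0.16) was higher. All of these passed the test named above.

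The other ionotropic glutamate receptor genes give the setting of these values. Of 15 genes of AMPA receptor subunits and auxiliary proteins, 1, 1, 0, 1 and 1 passed as higher and 1, 4, 4, 6 and 2 as lower, from the earliest comparison to the latest. Their median log2FC was -0.18, -0.345, -0.32, -0.63 and -0.47. Of 9 genes of NMDA and delta receptor subunits, 1, 1, 0, 1 and 0 passed as higher and 0, 1, 3, 7 and 3 as lower. Their medians were -0.32, -0.31, -0.40, -0.80 and -0.33. At 36 h, when Grik5 passed, the AMPA subunit genes Gria3 (-1.23, s.e. 0.17) and Gria1 (-1.08, s.e. 0.24) and the NMDA subunit genes Grin2c (-1.455, s.e. 0.25) and Grin2b (-1.10, s.e. 0.18) also passed as lower. The NMDA subunit gene Grin3b (1.99, s.e. 0.75) and Cacng5 of the AMPA list (0.94, s.e. 0.29) passed as higher at 36 h. Over all genes tested, from the earliest comparison to the latest, 15.7%, 13.8%, 14.9%, 12.6% and 15.1% passed as higher. As lower, 6.14%, 11.3%, 9.17%, 8.84% and 4.08% passed. The counts of these lists were not tested against each other or against these shares.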

How the data were processed

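RNA from microdissected CA1 was sequenced as unstranded polyA libraries. The deposited table holds raw read counts by gene. The authors produced these counts with Trim Galore 0.6.6, STAR 2.7.8a, SAMtools 1.10 and HTSeq 0.13.5, per the submitters' processing notes, on GRCm39 with GENCODE M26. Of 18647 genes, 18552 matched GENCODE M39, used here for names, exon lengths and overlaps. Totals were 2663936 to 30133731 counts per library, and low totals give less precise values.

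Counts were filtered with filterByExpr (18153 genes), scaled by TMM and fitted with edgeR 4.0.16 (R 4.3.3), with 1 term per group and 1 RUVr factor computed from residuals. Calls needed a Benjamini-Hochberg adjusted p of at most 0.05 and a log2FC of at least 0.66 in size (1 between SE time points). RPKM used all exonic bases. Alternatives used DESeq2 1.42.0, limma 3.58.1, other scaling, filters, covariates and samples. Replicate pairs had a chi-square per degree of freedom of at least 4.5 over 24 pairs, so all libraries were counted as separate. All 7 genes were named, with the 2 genes most like each that passed and, of the other lists, at most 4 that passed per comparison. The members and lists were chosen with earlier results of these data known. Promoter sequences came from RefSeq (GRCm38.p6).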

Additional observations from a re-analysis of the deposited data

How the results depend on the processing

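Among the member log2FC values recomputed, 2321 kept their direction and side of the threshold, 42 newly passed, 21 no longer passed and 168 changed sign without ever passing. All that turned were of Grik1: without the libraries with ganglion genes it was -0.703 at 36 h, and without these and Ctr 12 h replicate 3 it was -0.67 at 12 h and -0.703 at 36 h. Both omissions were chosen after seeing the data, and the cause was not tested. Against a count of 1 at 6 h, 4 genes passed with no fold limit and 2 without the ganglion gene libraries. Against 2 at 12 h, 1 passed in the compared groups alone and 4 with both omissions. Against 1 at 24 h, 3 passed with no fold limit and 0 with both omissions. Against 1 at 36 h, 2 passed with library size only, 0 with all controls as reference, and 3 with no fold limit and with either omission. Against 0 at 72 h, 1 passed with library size only, with at least 10 counts in every library and with no fold limit. With the range of label numbers as a factor it was also 1. Either omission left SE 72 h replicate 3 as the sole SE library at 72 h, so no count is given for them there.

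Between SE time points the count of 1 became 0 with no RUVr factor, a ganglion score in its place, library size only, no filter, at least 10 counts, compared groups only, the label range factor, the replicate block and without the ganglion gene libraries. The count of 0 for differences between times became 1 with the label range factor, 1 without the ganglion gene libraries and 2 with both omissions, and that for control groups became 1 in DESeq2. Omitting 1 library gave 1 to 2 genes at 6 h, 2 to 3 at 12 h, 1 to 2 at 24 h, 1 to 2 at 36 h, 0 to 2 at 72 h, 0 to 1 between SE time points, 0 to 1 for differences and 0 to 1 for control groups.

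Replicate numbers were not used to pair the samples. Deviations from the group mean correlated from -0.201 to 0.181 over 9 same-numbered pairs and from -0.299 to 0.252 over differently numbered ones. At 12 and 36 h alone these ranges were -0.002 to 0.181 and -0.185 to 0.08. Whether the numbers pair the samples was not tested. With the replicate block the log2FC of Grik3 between 12 and 6 h was -0.994 (adjusted p = 0.042), under the limit, and that of Grik2 at 12 h was -1.18. For Grik1, leaving out 1 library gave log2FC values of -0.548 to 0.601 at 12 h (without SE 12 h replicates 1 and 2) and -0.71 to 0.667 at 36 h (without SE 36 h replicates 3 and 2), none of which passed. The label number ranges were not stated to be batches, and no range held both SE and its controls at 72 h, nor any control beside SE 24 h, so no within-range value could be given for these times.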
